A study of Danio rerio with 12 samples.

Results

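The response of larval zebrafish (Danio rerio) neutrophils to a spinal cord lesion was measured here in larvae kept in DMSO, as 3 injured against 3 uninjured libraries, 6 of the 12 libraries in the series. Injured DMSO larvae had the spinal cord cut through at anal pore level with a needle tip at 3 days post-fertilization and were sampled 8 hours post-injury. Uninjured DMSO larvae were of the same age and had no lesion, and the same trunk region was taken. All larvae carried mpx:GFP, in which the promoter of the neutrophil myeloperoxidase gene drives GFP, so that the sorted cells are those in which this promoter had been active. DMSO is the solvent of the inhibitor arm, where 25 uM AMD3100, a Cxcr4 antagonist, was given with 0.1% DMSO from 4 to 8 hours post-injury; the labels give neither concentration nor times for the DMSO arm. Each library came from 2500 to 4800 GFP+ cells, and the number of larvae pooled per library is not given either. Every entry of the count table other than the spike-ins was a member, 31263 entries, of which 8453 had enough counts to be tested.

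Neutrophils are short-lived phagocytes that leave the circulation for a wound within hours. They carry preformed granules with peroxidase, proteases and antimicrobial proteins, engulf debris and microbes into acidified phagosomes, and make superoxide with the NADPH oxidase. They draw most of their ATP from glycolysis, and their activation is usually read from receptors, granule contents, oxidase and cytokines. Protein turnover by the proteasome, which degrades ubiquitin-tagged proteins, and acidification by the vacuolar proton pump (V-ATPase) are general cell functions that also serve antigen processing and phagosome maturation.

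Levels below are CPM, each gene's counts relative to the library's total after scaling by composition, given for replicates 1, 2 and 3 of a group in that order, and fold changes are injured over uninjured on the log2 scale with a standard error (SE). Depth was 2702372 to 10553025 counts in the injured and 1697395 to 6446017 counts in the uninjured libraries. Transcripts of the GFP transgene stood at 1393 to 1511 CPM of all counts in the injured and 1674 to 1827 CPM in the uninjured libraries. Of the neutrophil markers, lyz ranged over the 6 libraries between 1658 and 7342 CPM, cfl1l between 3151 and 4828 CPM and coro1a between 602 and 956 CPM, while csf3r, a receptor for granulocyte colony-stimulating factor, stayed at 2.403 to 9.11 CPM. The marker srgn ranged between 817 and 1813 CPM, and cebp1 stayed low at 0 to 3.81 CPM. Mitochondrial transcripts, ribosomal RNA included, took 19.1% to 26.9% of counts in the injured and 29.9% to 32.1% in the uninjured libraries, without overlap. Mitochondrial ribosomal RNA alone took 9.07% to 15.2% in the injured and 16.3% to 21.5% in the uninjured libraries, also without overlap. The gap thus lay in ribosomal RNA, and no gap in the other mitochondrial transcripts was shown. On the first principal component of the 6 libraries, which held 39.8% of the variance, the injured libraries lay between -45.2 and -36.7 and the uninjured ones between 26.2 and 63.0.

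Injury changed 439 of 8453 tested entries, or 5.19%, at an adjusted p under 0.05. In 434 of these 439 the injured and uninjured DMSO libraries did not overlap. Lack of overlap in a called gene below is thus a description and not separate support. Higher in injured larvae were 242 (2.86%) and lower were 197 (2.33%), a split that other scalings and tools turned towards falls (328 and 395 with DESeq2, 212 and 231 with upper-quartile factors). The split varied with level: under 20 CPM 68 entries were higher and 103 lower, at 20 to 100 CPM 108 and 68, at 100 to 1000 CPM 64 and 20, and at 1000 CPM or more 2 and 6. The count was 163 to 301 when any 1 of the 6 DMSO libraries was left out, lowest without uninjured replicate 3, and 318 to 659 when any 1 AMD3100 library was, highest without injured AMD3100 replicate 1. Of the 439, 118 (72 higher and 46 lower) were lost in none of those 12 fits. The 14 other settings lost none of these 118, but the setting with an adjusted p under 0.1 cannot lose a call. An entry that a setting's filter or exclusion removed was not tested there and was not counted as lost. Most genes described below come from these 118. Where a named call was lost without a library, that is stated in the same paragraph.

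**Figure D1:**
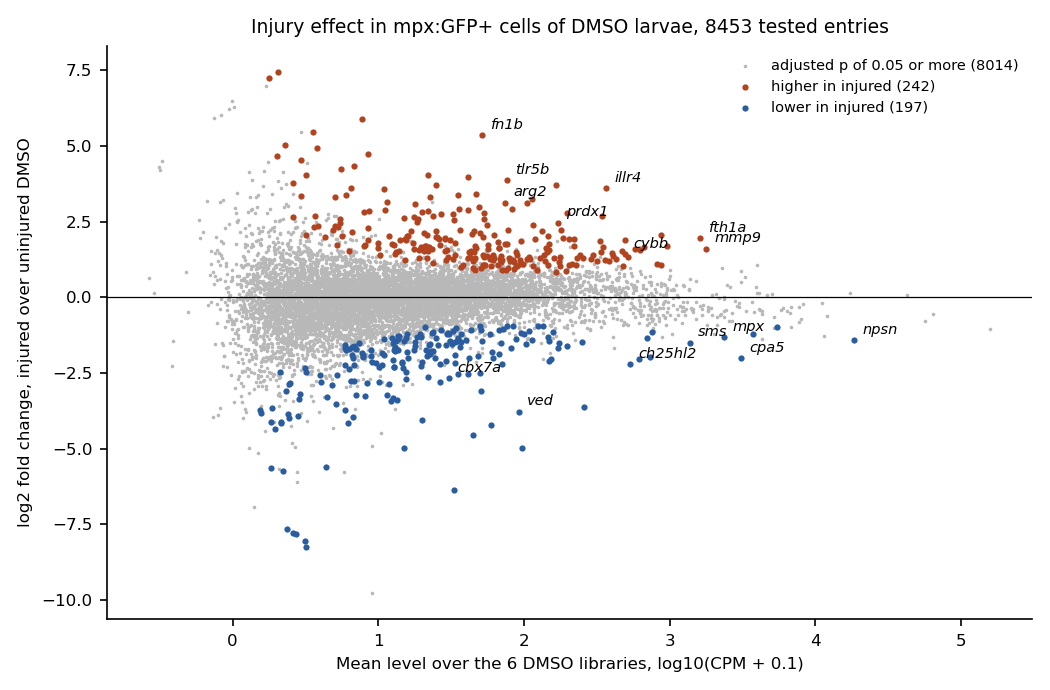
Each dot is 1 of 8453 tested entries, with its mean level over the 6 DMSO libraries on the x axis (log10 of CPM + 0.1) and its log2 fold change, injured over uninjured DMSO, on the y axis. The 242 called rises are red and the 197 called falls blue; 103 of the falls lie under 20 CPM, and npsn, cpa5, mpx and sms are labelled falls above 1000 CPM.

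The list with the most called members was the proteasome. Of 50 tested subunits and cofactors, 17 rose and 0 fell, against 2.86% and 2.33% of all tested entries, and the log2 fold change was above 0 in 47, the median being 0.95 (all tested entries, -0.02). In 39 of the 50 the injured libraries all lay above the uninjured ones, against 15.9% of all tested entries (29.6% in either direction). The rises covered both parts of the particle: 3 of 9 members of the alpha ring and 3 of 7 of the beta ring, which together form the proteolytic core, 5 of 7 base ATPases, which unfold substrates, and 5 of 18 other members of the regulatory cap. The transcripts of the list made up 0.657%, 0.789% and 0.713% of counts in injured and 0.361%, 0.276% and 0.269% in uninjured libraries (exact two-sided permutation p = 0.1, the smallest that 3 against 3 can give). The count was 4 to 8 without any 1 of the 6 DMSO libraries, and the median stayed between 0.81 and 1.06.

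Among its members, the cap subunit psmd8 (ENSDARG00000020454) had 62.4, 86.8 and 64.7 CPM in injured and 13.6, 16.8 and 19.3 CPM in uninjured libraries. The groups were far apart. The psmd8 log2 fold change was 2.09 (SE 0.301, adjusted p = 0.00158). The core subunit psma3 stood at 127, 133 and 128 CPM in injured and 46.8, 36.6 and 54.2 CPM in uninjured libraries. The psma3 log2 fold change was 1.49 (SE 0.26, adjusted p = 0.00443). Its 3 injured libraries were nearly equal and all above the highest uninjured one. The base ATPase psmc1b counted 51.8, 61.6 and 74.7 CPM in injured and 21.8, 21.97 and 22.2 CPM in uninjured libraries. The psmc1b log2 fold change was 1.51 (SE 0.26, adjusted p = 0.0035). The activator psme2, one of the 2 subunits of the PA28 ring that binds the end of the core and is known in mammals as interferon-inducible, had 51.8, 68.7 and 59.9 CPM in injured and 15.2, 11.7 and 11.4 CPM in uninjured libraries. The psme2 log2 fold change was 2.24 (SE 0.37, adjusted p = 0.0032). Its partner psme1 did not pass (log2 fold change 1.63, adjusted p = 0.057). Of the 50, uchl5, psmd5 and psmg2 had a negative log2 fold change, and none of these 3 passed.

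Single genes that act next to the proteasome were also called. The AAA ATPase vcp, which extracts ubiquitylated proteins from membranes and complexes, had 502, 615 and 660.4 CPM in injured and 225, 229 and 194 CPM in uninjured libraries. The vcp log2 fold change was 1.46 (SE 0.26, adjusted p = 0.00471). Its cofactor nsfl1c had 87.6, 79.5 and 98.2 CPM in injured and 32.1, 30.03 and 38.2 CPM in uninjured libraries. The nsfl1c log2 fold change was 1.39 (SE 0.26, adjusted p = 0.00657). In both genes the lowest injured library was over 2 times the highest uninjured one. Of 175 tested genes of ubiquitin conjugation and removal, by contrast, 4 rose and 0 fell, a share near that of all tested entries. The ubiquitin-conjugating enzyme ube2d2l was among the most significant genes of the comparison (55.8, 57.8 and 54.96 CPM in injured and 11.97, 10.99 and 6.72 CPM in uninjured libraries; log2 fold change 2.55, SE 0.299, adjusted p = 5.04e-04). The ubiquitin ligases rnf181 (1.63, adjusted p = 0.00539) and birc2 (1.54, adjusted p = 0.00195), the second a regulator of cell death and NF-kB, rose too. None of 30 autophagy genes and none of 105 genes of folding and secretion in the endoplasmic reticulum passed in edgeR, although txndc12, a thioredoxin-like protein of that compartment outside the list, rose. The txndc12 log2 fold change was 3.096 (SE 0.47, adjusted p = 0.00195). Of 81 heat shock and chaperone genes 5 rose and 0 fell, against 2.86% and 2.33% of all tested entries. The rises numbered 2 to 3 without any 1 of the 6 DMSO libraries. They were led by the cytosolic chaperone hsp90aa1.2, with 98.3, 99.05 and 82.5 CPM in injured and 27.2, 16.8 and 9.995 CPM in uninjured libraries. The hsp90aa1.2 log2 fold change was 2.41 (SE 0.33, adjusted p = 0.00133).

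**Figure D2:**
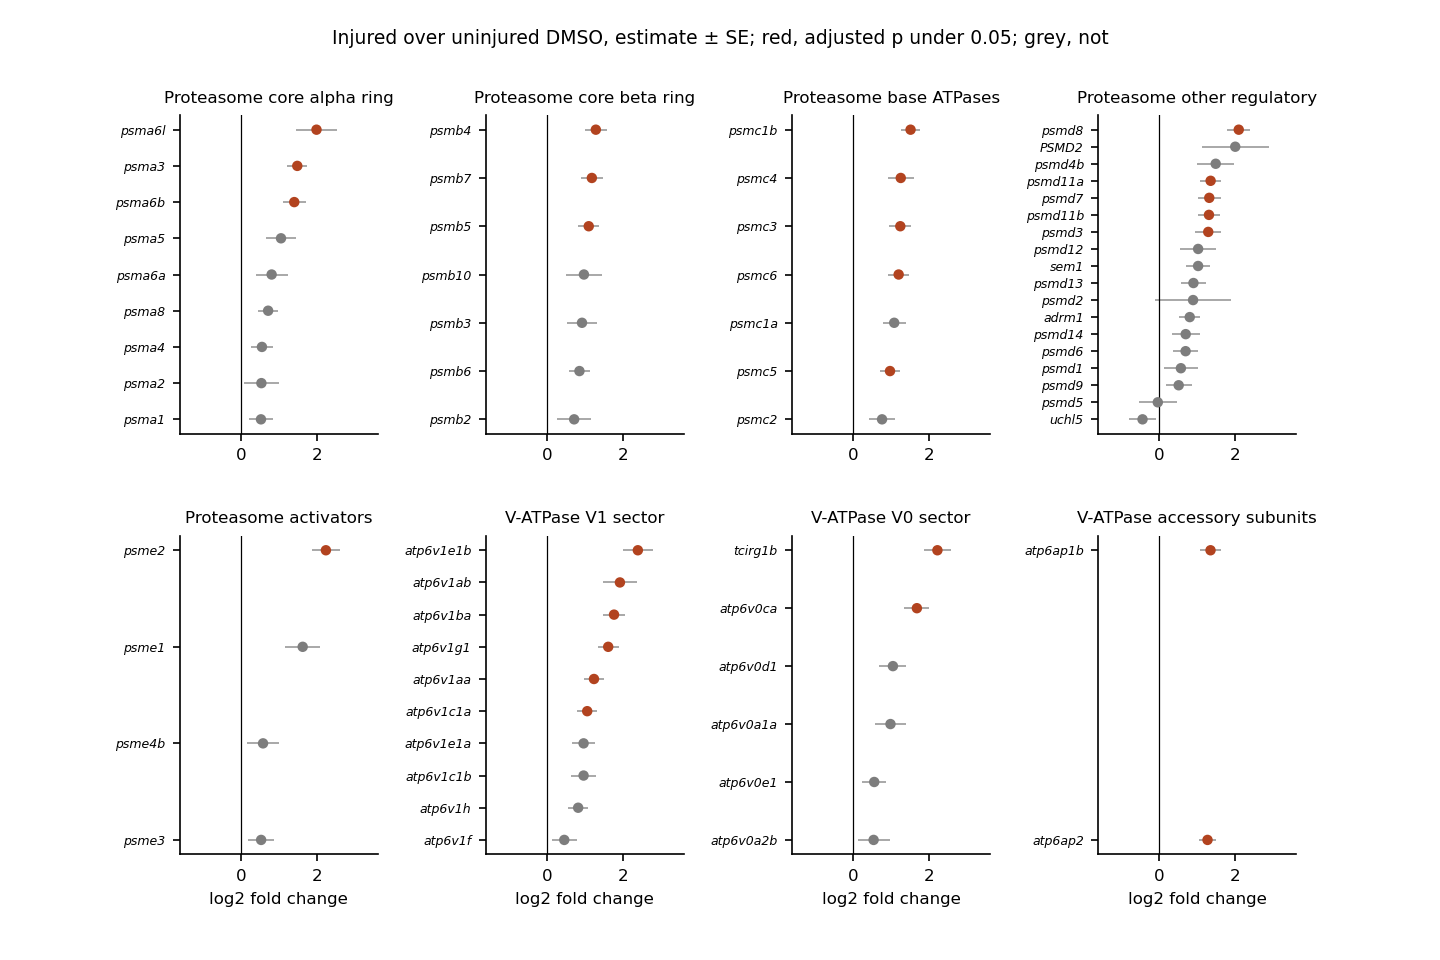
Each dot is the log2 fold change, injured over uninjured DMSO, of a tested member, with its SE as a bar, in 5 parts of the proteasome and 3 parts of the V-ATPase. Red marks an adjusted p under 0.05; apart from uchl5 and psmd5, every dot lies above 0.

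All 18 tested members of the vacuolar proton pump had a positive log2 fold change and 10 rose, against 2.86% of all tested entries. Of the cytosolic V1 sector, which hydrolyses ATP, 6 of 10 rose. Of the membrane V0 sector, which carries protons, 2 of 6 rose, as did both accessory subunits. The V0 subunit tcirg1b, whose mammalian counterpart is the a3 isoform of osteoclasts and phagocyte lysosomes, had 111, 154 and 117 CPM in injured and 36.99, 30.03 and 16.5 CPM in uninjured libraries. The tcirg1b log2 fold change was 2.22 (SE 0.36, adjusted p = 0.0032). Of the V1 sector, the stalk subunit atp6v1e1b had 154, 234 and 190.2 CPM in injured and 44.1, 24.9 and 40.3 CPM in uninjured libraries (log2 fold change 2.39, SE 0.399, adjusted p = 0.0034), and some of its reads sit in a joint entry with the overlapping ada2b. A more abundant V1 member, atp6v1g1, had 748, 959 and 893 CPM in injured and 251, 289 and 309.8 CPM in uninjured libraries. The atp6v1g1 log2 fold change was 1.61 (SE 0.28, adjusted p = 0.00398). In these 3 genes the groups did not overlap, and atp6v1ba (1.77) and the accessory subunit atp6ap2 (1.27) followed with adjusted p of 0.0035 and 0.00553. The c-ring gene atp6v0ca (log2 fold change 1.68) and atp6ap1b (1.35) also passed; the calls on atp6v0ca and atp6ap1b were each lost, with adjusted p = 0.0506 to 0.0738, without at least 1 of injured DMSO replicates 2 or 3 or uninjured DMSO replicates 2 or 3.

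Of the wider lysosome list, which does not hold tcirg1b, 14 of 69 tested members rose and 1 fell (all tested entries, 2.86% and 2.33%). The median log2 fold change was 0.54, and without a single library the rises numbered 6 to 15. Cathepsins, the proteases of this compartment, went both ways, with 3 of 12 higher and 1 lower. Cathepsin C, ctsc, which in mammals activates the serine proteases of neutrophil granules, had 76.02, 116 and 114 CPM in injured and 33.7, 30.03 and 33.98 CPM in uninjured libraries. The ctsc log2 fold change was 1.64 (SE 0.296, adjusted p = 0.00509). The cathepsin L gene ctsl.1 had 66.7, 87.7 and 108 CPM in injured and 22.3, 23.4 and 31.4 CPM in uninjured libraries (log2 fold change 1.75, SE 0.32, adjusted p = 0.00539), and ctsla also rose (1.51, adjusted p = 0.026); reads may be shared between these paralogues. The cathepsin S gene ctss1 had lower levels after injury, 80.7, 80.1 and 114 CPM in injured and 169.7, 273 and 333 CPM in uninjured libraries (log2 fold change -1.497, SE 0.296, adjusted p = 0.00915), but the calls on ctss1 and ctsla were each lost, with adjusted p = 0.0509 to 0.127, without at least 1 of injured DMSO replicates 1 or 2 or uninjured DMSO replicates 2 or 3. Plekhf1, an endosomal and lysosomal phosphoinositide-binding protein, was one of the largest rises, with 47.8, 96.4 and 88.6 CPM in injured and 5.98, 5.86 and 3.82 CPM in uninjured libraries. Its lowest injured library was about 8 times the highest uninjured one. The plekhf1 log2 fold change was 3.96 (SE 0.48, adjusted p = 5.04e-04).

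Of 35 tested glycolysis and lactate genes 11 rose and 0 fell, against 2.86% and 2.33% of all tested entries. In 19 of the 35 the lowest injured value exceeded the highest uninjured one, against 15.9% of all tested entries, and the median log2 fold change was 0.55. The 11 rises were hk2, which traps glucose as its phosphate, pfkpa and pfkpb, the committed step, aldocb, gapdhs, pgk1, pgam1a and pkma below it, ldha, which makes lactate, the transporter slc2a6 and the malic enzyme me2. The glyceraldehyde-phosphate dehydrogenase gapdhs had 851, 1022 and 916 CPM in injured and 330.2, 275 and 340.2 CPM in uninjured libraries. The gapdhs log2 fold change was 1.56 (SE 0.26, adjusted p = 0.00327). Its paralogue gapdh did not pass and pointed the other way, with 569, 564 and 672 CPM in injured and 748, 850.3 and 1091 CPM in uninjured libraries (log2 fold change -0.57, adjusted p = 0.288). Likewise the lactate dehydrogenase ldha had 349.6, 331 and 284 CPM in injured and 102, 52.7 and 94.7 CPM in uninjured libraries (log2 fold change 1.94 ± 0.28 SE, adjusted p = 0.00177), while ldhba had 60.1, 63.8 and 93.4 CPM in injured and 114, 83.5 and 89.4 CPM in uninjured libraries (log2 fold change -0.401, adjusted p = 0.393) with overlapping groups. The phosphoglucomutase-family gene pgm2 rose. The pgm2 log2 fold change was 1.82 (SE 0.33, adjusted p = 0.00553). The muscle-type genes aldoab (-0.96, adjusted p = 0.176) and eno3 (-0.29, adjusted p = 0.585) did not pass. The calls on hk2, pfkpa, pfkpb, pgk1, pkma, slc2a6 and me2 were each lost, with adjusted p = 0.0524 to 0.203, without at least 1 of the 6 DMSO libraries or injured AMD3100 replicates 2 or 3 or uninjured AMD3100 replicates 1, 2 or 3.

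Of 34 tested genes of the tricarboxylic acid cycle and its feeding enzymes 4 rose and 0 fell (11.8%, against 2.86% higher over all tested entries; median 0.35), namely acss1, suclg1, sucla2 and got2b. Acss1, the mitochondrial enzyme that turns acetate into acetyl-CoA, had 30.9, 34.7 and 29.8 CPM in injured and 7.07, 5.13 and 3.998 CPM in uninjured libraries. The acss1 log2 fold change was 2.604 (SE 0.43, adjusted p = 0.00339). Succinate-CoA ligase was called for both its shared alpha subunit suclg1, with 204, 335 and 342 CPM in injured and 97.4, 74.7 and 53.8 CPM in uninjured libraries (log2 fold change 1.97 ± 0.37 SE, adjusted p = 0.00626), and its ATP-forming beta subunit sucla2 (1.66, adjusted p = 0.0399), although the calls on suclg1, sucla2 and got2b were each lost, with adjusted p = 0.0523 to 0.148, without at least 1 of the 6 DMSO libraries or uninjured AMD3100 replicates 1, 2 or 3. Of 102 oxidative phosphorylation genes 88 were positive, the median log2 fold change being 0.38. In 39 of them every injured value exceeded every uninjured one, against 15.9% of all tested entries, and 4 rose, near the 2.86% of all tested entries. Mitochondrial ribosomal proteins were alike (62 of 74 positive, median 0.35, 1 called). The 83 cytosolic ribosomal protein genes pointed the other way: 79 were negative, with a median of -0.43 and 0 called, and in 53 the injured libraries all lay below the uninjured ones, against 13.7% of all tested entries. No mitochondrially encoded gene passed (0 of 19).

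**Figure D3:**
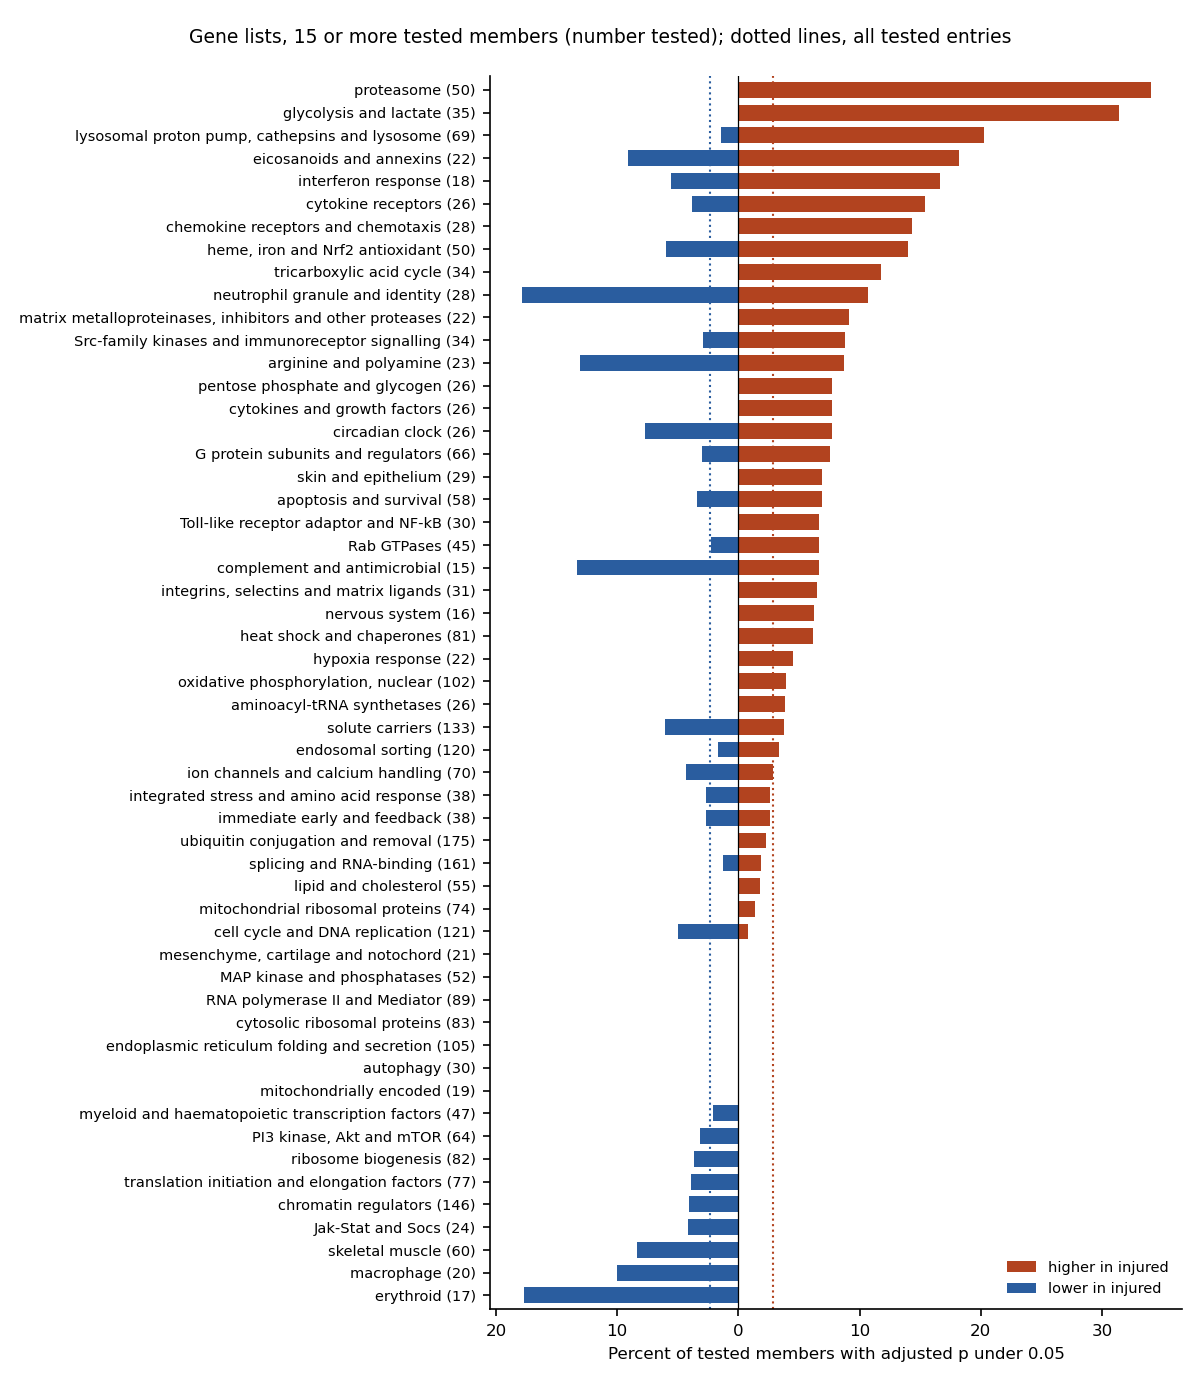
Bars give, for lists with 15 or more tested members (number tested in brackets; 1 such list is not shown), the percent of members called higher (right, red) and lower (left, blue) in injured DMSO larvae. Dotted lines mark the same percent over all tested entries, 2.86% and 2.33%; the proteasome (17 of 50), glycolysis (11 of 35) and lysosome lists (14 of 69) stand at the top.

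Of 7 tested NADPH oxidase genes 2 rose and 0 fell (all tested entries, 2.86% and 2.33%). The catalytic oxidase subunit cybb had 736, 739 and 670.1 CPM in injured and 284, 270.3 and 240.1 CPM in uninjured libraries (log2 fold change 1.43 ± 0.25 SE, adjusted p = 0.00384), with the groups well apart. All 7 had a positive log2 fold change, while cyba (0.77, adjusted p = 0.122), ncf1 (0.61) and ncf4 (0.01) did not pass. The NAD kinase nadka (ENSDARG00000098313), which phosphorylates NAD to NADP, had 593, 881 and 878 CPM in injured and 199, 208 and 227 CPM in uninjured libraries. The nadka log2 fold change was 1.89 (SE 0.26, adjusted p = 0.00117). A second table entry of that symbol stayed under 7 CPM in all 6 libraries. Of 26 genes of the pentose phosphate pathway, which supplies NADPH, and of glycogen use, 2 rose (pgm2 and pygb) and 0 fell. The call on pygb was lost, with adjusted p = 0.0517 to 0.11, without injured DMSO replicates 2 or 3 or uninjured DMSO replicates 1 or 3.

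Antioxidant and iron-handling genes moved in both directions, with 7 of 50 higher and 3 lower (all tested entries, 2.86% and 2.33%). Peroxiredoxin prdx1, which removes hydrogen peroxide, had 227, 328 and 316 CPM in injured and 58.8, 54.2 and 44.9 CPM in uninjured libraries. The prdx1 log2 fold change was 2.47 (SE 0.29, adjusted p = 5.04e-04). The ferritin heavy chain fth1a, which stores iron, was among the most abundant called genes at 2169, 2669 and 2816 CPM in injured and 885, 527 and 548 CPM in uninjured libraries. The fth1a log2 fold change was 1.97 (SE 0.33, adjusted p = 0.0035). The iron exporter ferroportin, slc40a1, went the other way with 3.65, 4.16 and 4.97 CPM in injured and 24.5, 13.9 and 25.1 CPM in uninjured libraries (log2 fold change -2.31, SE 0.36, adjusted p = 0.0023), and hemopexin hpxb, a heme-binding protein, fell too (15.6, 11.4 and 6.41 CPM in injured and 40.3, 56.4 and 44.2 CPM in uninjured libraries; log2 fold change -2.09, SE 0.34, adjusted p = 0.00309). In each of these 4 genes the groups did not overlap. The heme oxygenase hmox1a had 9.96, 30.2 and 36.4 CPM in injured and 7.07, 6.59 and 5.45 CPM in uninjured libraries (log2 fold change 2.04, SE 0.52, adjusted p = 0.0336), where injured replicate 1 stayed near the uninjured level. Further rises were gclm, a subunit of glutamate-cysteine ligase, the thioredoxin txn, its reductase txnrd3 and the ferritin-like fthl27. The other falls of the list, gsto1 and nqo1, were of genes under 6 CPM, while hpxb is outside it. The calls on hmox1a, gclm, txn, txnrd3, fthl27, gsto1 and nqo1 were each lost, with adjusted p = 0.0531 to 0.225, without at least 1 of the 6 DMSO libraries or uninjured AMD3100 replicates 1, 2 or 3. Park7, a redox-sensitive protein outside the list, fell. The park7 log2 fold change was -1.89 (SE 0.32, adjusted p = 0.0035).

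Receptors that sense microbes and sugars were among the large rises. The lectin-like receptor illr4 (ENSDARG00000008075) had 558, 628 and 835 CPM in injured and 64.2, 59.3 and 41.98 CPM in uninjured libraries (log2 fold change 3.62 ± 0.35 SE, adjusted p = 3.13e-04), and the flagellin receptor tlr5b had 107, 163 and 156 CPM in injured and 8.16, 9.52 and 10.9 CPM in uninjured libraries (log2 fold change 3.88 ± 0.68 SE, adjusted p = 0.00423). In both genes every injured library was at least 8 times every uninjured one. The sialic acid-binding lectin cd22 had 204, 224 and 183 CPM in injured and 22.3, 31.5 and 13.1 CPM in uninjured libraries (log2 fold change 3.24 ± 0.42 SE, adjusted p = 9.45e-04), and intelectin itln1, which binds microbial glycans, had 61.1, 51.9 and 57.5 CPM in injured and 4.896, 8.06 and 11.4 CPM in uninjured libraries. The itln1 log2 fold change was 2.74 (SE 0.39, adjusted p = 0.00158). The galectin gene lgals9l1 had 113, 78.97 and 84.4 CPM in injured and 22.3, 7.32 and 10.2 CPM in uninjured libraries. The lgals9l1 log2 fold change was 2.799 (SE 0.42, adjusted p = 0.00195). Of 8 tested microbial sensors 3 rose, tlr5b, the peptidoglycan-recognition gene pglyrp5 (3.304) and card9, an adaptor downstream of C-type lectin receptors, with 28.5, 41.1 and 34.9 CPM in injured and 10.9, 11.7 and 12.18 CPM in uninjured libraries. The card9 log2 fold change was 1.59 (SE 0.2998, adjusted p = 0.00675). Of 10 tested members of a list of lectin-type and immunoglobulin-type immune receptors and adaptors 4 rose and 0 fell. Over all tested entries 2.86% rose and 2.33% fell. The rises were illr4, cd22 and the tetraspanins cd9b and cd81a, which are of neither receptor type. The calls on pglyrp5, cd9b and cd81a were each lost, with adjusted p = 0.0523 to 0.0815, without at least 1 of injured DMSO replicates 2 or 3 or uninjured DMSO replicates 1, 2 or 3.

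Of 34 genes of Src-family and immunoreceptor signalling 3 rose and 1 fell, 11.8% called against 5.19% of all tested entries. The Src-family kinase hck had 249, 401 and 364 CPM in injured and 153, 100.3 and 61.8 CPM in uninjured libraries (log2 fold change 1.69 ± 0.32 SE, adjusted p = 0.0071), with uninjured replicate 1 the highest of its group, and the adaptor blnk, best known from B cells, had 40.5, 37.1 and 27.2 CPM in injured and 10.9, 4.39 and 9.27 CPM in uninjured libraries (log2 fold change 2.05, SE 0.35, adjusted p = 0.00383); it is also on the lymphoid list, where 2 of 8 rose. The phosphatase ptpn6, a brake on such receptors, rose (1.24, adjusted p = 0.0439) and the kinase prkcbb fell (-2.01, adjusted p = 0.037), but the calls on ptpn6 and prkcbb were each lost, with adjusted p = 0.05001 to 0.203, without at least 1 of the 6 DMSO libraries or injured AMD3100 replicate 3 or uninjured AMD3100 replicates 1, 2 or 3. Of 30 genes of the Toll-like receptor and NF-kB pathways 2 rose and 0 fell, and of 52 mitogen-activated kinase and phosphatase genes none passed in edgeR.

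Among cytokine receptors 4 of 26 rose and 1 fell (all tested entries, 2.86% and 2.33%). The shared signalling chain il6st (gp130), which serves the receptors of the interleukin 6 and interleukin 11 families, had 30.2, 26.6 and 22.3 CPM in injured and 8.16, 10.3 and 8.18 CPM in uninjured libraries. The il6st log2 fold change was 1.59 (SE 0.28, adjusted p = 0.00471). Its lowest injured value was over 2 times the highest uninjured one. The interferon gamma receptor chain ifngr1 had 109, 87.1 and 74.8 CPM in injured and 18.5, 13.9 and 13.1 CPM in uninjured libraries. The ifngr1 log2 fold change was 2.58 (SE 0.52, adjusted p = 0.0103). The interleukin 6 receptor il6r was abundant and did not pass (625 ± 66.9 CPM in injured and 458 ± 55.6 CPM in uninjured libraries, SD, n = 3 each; adjusted p = 0.369). The hepatocyte growth factor receptor met and the interleukin 21 receptor gene il21r.1 rose, and csf1rb, a colony-stimulating factor 1 receptor on the macrophage list, fell (0.332, 0.973 and 0.961 CPM in injured and 9.79, 3.66 and 23.6 CPM in uninjured libraries; log2 fold change -3.94 ± 0.796 SE, adjusted p = 0.0107). The calls on ifngr1, met, il21r.1 and csf1rb were each lost, with adjusted p = 0.0507 to 0.0937, without at least 1 of the 6 DMSO libraries.

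Of 26 tested cytokines and growth factors 2 rose and 0 fell (all tested entries, 2.86% and 2.33%). The interleukin gene il11b (ENSDARG00000058557) had 45.5, 48.02 and 21.3 CPM in injured and 3.81, 5.86 and 5.82 CPM in uninjured libraries, so that injured replicate 3 stood below the other two and still above every uninjured library. The il11b log2 fold change was 2.87 (SE 0.71, adjusted p = 0.029). The growth factor hbegfb, a ligand of the epidermal growth factor receptor, had 9.63, 15.7 and 12.98 CPM in injured and 1.63, 0 and 0.363 CPM in uninjured libraries. The hbegfb log2 fold change was 4.35 (SE 0.85, adjusted p = 0.00845). Il1b did not pass, with 271, 279.5 and 292 CPM in injured and 177, 142 and 219 CPM in uninjured libraries, nor did the chemokine cxcl8a, which stayed under 4 CPM. Tnfa was not tested, with 2, 2 and 1 counts in the injured libraries and 0 in each uninjured one. The calls on il11b and hbegfb were each lost, with adjusted p = 0.0692 to 0.101, without at least 1 of injured DMSO replicates 1 or 2 or uninjured DMSO replicates 1, 2 or 3.

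Chemotaxis genes had 4 of 28 higher and 0 lower (all tested entries, 2.86% and 2.33%). The rises were the chemokine ccl38.6, the chemokine receptor ccr9a, the inhibitory G protein alpha subunit gnai2a, through which chemokine receptors signal, and rgs2, which shortens such signals. Ccr9a had 246, 193 and 226 CPM in injured and 72.4, 73.97 and 75.4 CPM in uninjured libraries (log2 fold change 1.58, SE 0.37, adjusted p = 0.021), with the 3 uninjured libraries nearly equal. The chemokine receptor cxcr1, which binds Cxcl8, did not pass but did not overlap (63.4, 81.7 and 73.4 CPM in injured and 53.9, 34.4 and 21.99 CPM in uninjured libraries; log2 fold change 1.01, adjusted p = 0.165). The calls on ccl38.6, ccr9a, gnai2a and rgs2 were each lost, with adjusted p = 0.0507 to 0.158, without at least 1 of the 6 DMSO libraries or uninjured AMD3100 replicates 2 or 3. Cxcr4b was counted in entries shared with neighbouring genes, so its own level is not given here, and cxcr4a (4, 5 and 5 counts in injured, 1, 2 and 10 in uninjured libraries), cxcr2 (0 in each injured, 0, 0 and 7 in uninjured) and the ligand cxcl12a (0, 13 and 0 in injured, 0 in each uninjured) had too few counts to test.

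Granule and identity genes of the neutrophil split into rises and falls, 3 and 5 of 28 (all tested entries, 2.86% and 2.33%). Cpa5, a carboxypeptidase, had 1272, 867 and 1535 CPM in injured and 3248, 6163 and 5389.7 CPM in uninjured libraries. Its lowest uninjured library was over 2 times the highest injured one. The cpa5 log2 fold change was -2.01 (SE 0.32, adjusted p = 0.00282). Npsn, an astacin-type metalloprotease and the most abundant called gene, had 10631, 8231 and 11311 CPM in injured and 25219, 31453 and 23141 CPM in uninjured libraries (log2 fold change -1.403, SE 0.34, adjusted p = 0.0261), and mpx, the myeloperoxidase gene of the reporter, had 1564, 940.1 and 1559.95 CPM in injured and 2508, 3573 and 3985 CPM in uninjured libraries (log2 fold change -1.31 ± 0.31 SE, adjusted p = 0.025). The peptide transporter abcb9 had 27.9, 24.5 and 24.5 CPM in injured and 94.7, 113 and 140.5 CPM in uninjured libraries (log2 fold change -2.18 ± 0.26 SE, adjusted p = 5.04e-04), with 3 nearly equal injured values. Lyz, the lysozyme, did not pass but all injured libraries were below all uninjured ones (2649, 1658 and 2826 CPM in injured and 4405, 6915 and 7342 CPM in uninjured libraries; adjusted p = 0.127). The marker srgn did not pass either (log2 fold change -0.85, adjusted p = 0.0525). Its levels were 863, 919 and 817 CPM in injured and 1447, 1422 and 1813 CPM in uninjured libraries, without overlap. Nccrp1, cfl1l and coro1a overlapped between the groups, with log2 fold changes of -0.06, -0.15 and 0.15. Against these falls, the gelatinase mmp9 had 3070.4, 2153 and 2799 CPM in injured and 1058, 789.5 and 783 CPM in uninjured libraries (log2 fold change 1.61 ± 0.34 SE, adjusted p = 0.0143), and the membrane-type metalloproteinase mmp25b, known in mammals from neutrophils, had 12.3, 16.98 and 16.98 CPM in injured and 1.09, 0.732 and 3.45 CPM in uninjured libraries (log2 fold change 2.84 ± 0.61 SE, adjusted p = 0.0144). The calls on npsn, mpx, mmp9 and mmp25b were each lost, with adjusted p = 0.0509 to 0.122, without at least 1 of the 6 DMSO libraries. Because these are whole sorted samples, fewer cells of a kind and less transcript per cell cannot be told apart.

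**Figure D4:**
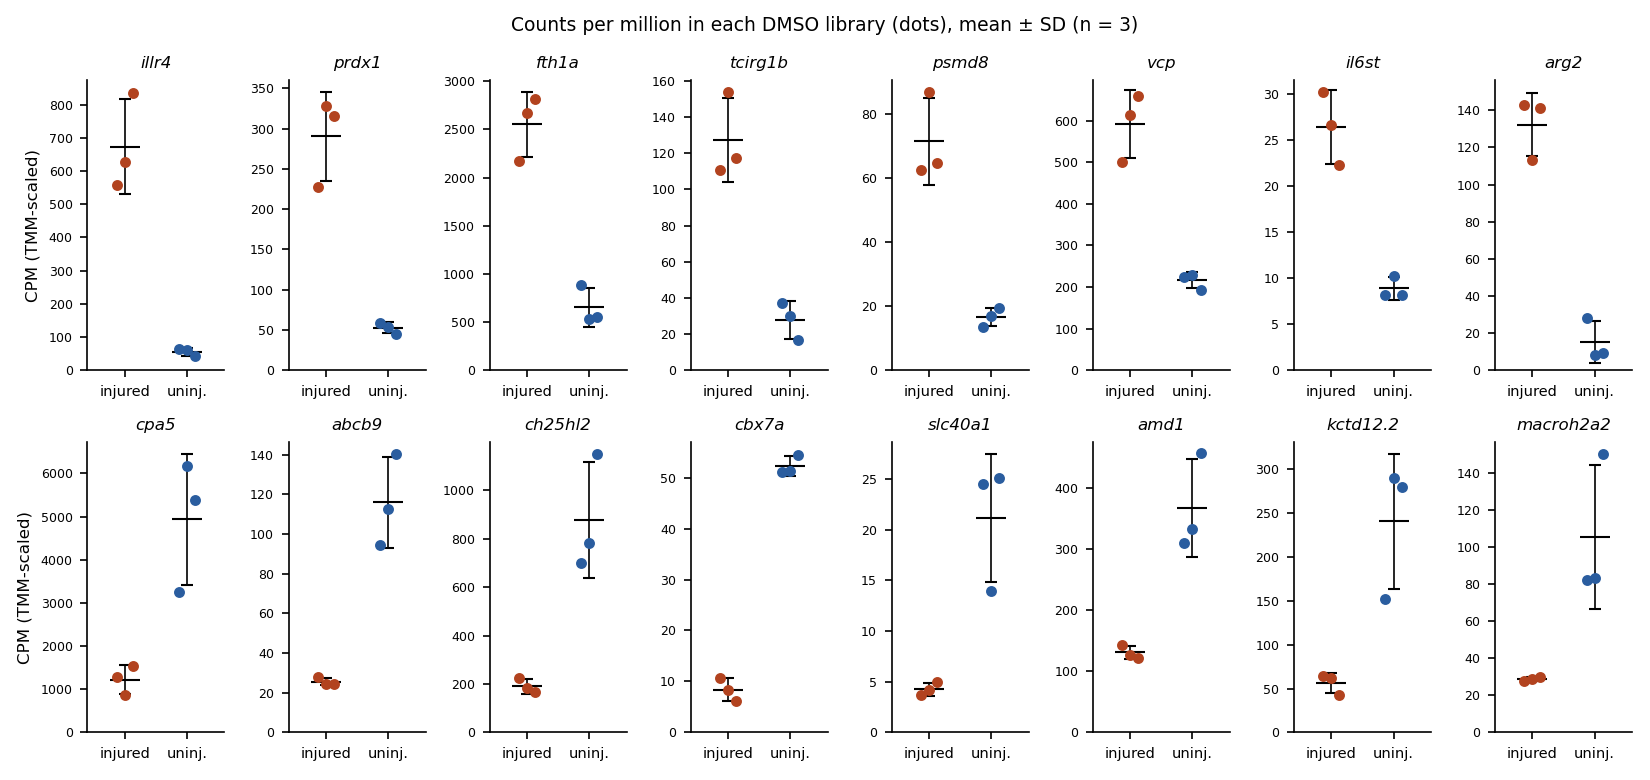
CPM of 16 genes that passed in every setting in which they were tested, in each injured (red, left) and uninjured (blue, right) DMSO library. The mean and SD (n = 3) are a dash and bar on an axis that starts at 0. The upper row holds genes that were higher in injured larvae and the lower row genes that were lower. In all 16 the groups do not overlap, as in 434 of the 439 called entries.

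Arginine and polyamine genes moved in both directions. Arginase arg2, which splits arginine into ornithine and urea, had 143, 113 and 141 CPM in injured and 28.3, 8.06 and 9.45 CPM in uninjured libraries (log2 fold change 3.13 ± 0.44 SE, adjusted p = 0.00136), and the amino acid transporter slc7a6 had 19.3, 26.97 and 29.8 CPM in injured and 7.07, 5.13 and 1.64 CPM in uninjured libraries. The slc7a6 log2 fold change was 2.62 (SE 0.49, adjusted p = 0.00629). Of the polyamine enzymes, 2 fell: amd1, S-adenosylmethionine decarboxylase, had 143, 127 and 122 CPM in injured and 309, 333 and 457 CPM in uninjured libraries (log2 fold change -1.49, SE 0.25, adjusted p = 0.00327), and spermine synthase, sms, had 789.8, 678 and 699 CPM in injured and 1714, 1928 and 2458 CPM in uninjured libraries (log2 fold change -1.49 ± 0.28 SE, adjusted p = 0.00603). In both, the lowest uninjured value was over 2 times the highest injured one, and the arginine transporter slc7a3a fell (-1.86, adjusted p = 0.00751). In all, 2 of 23 tested members rose and 3 fell (all tested entries, 2.86% and 2.33%). The gene odc1, whose product makes putrescine, did not pass (log2 fold change -0.02, adjusted p = 0.983). Sulfur amino acid metabolism was touched by cbsb, cystathionine beta-synthase, which had 59.8, 59.2 and 67.6 CPM in injured and 10.3, 11.7 and 4.18 CPM in uninjured libraries. The cbsb log2 fold change was 2.93 (SE 0.36, adjusted p = 5.04e-04). The call on slc7a3a was lost, with adjusted p = 0.0528, without uninjured DMSO replicate 3.

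Of 55 lipid and cholesterol genes 1 rose and 0 fell. The falls of ch25hl2 and aldh9a1a.1, given next, are of genes outside that list. The cholesterol 25-hydroxylase-like gene ch25hl2, whose product family makes the oxysterol 25-hydroxycholesterol, had 225, 182 and 166 CPM in injured and 699, 784 and 1149.8 CPM in uninjured libraries (log2 fold change -2.201, SE 0.295, adjusted p = 0.00103), and the aldehyde dehydrogenase aldh9a1a.1 had 252, 335 and 308 CPM in injured and 879.7, 1271 and 1319 CPM in uninjured libraries. The aldh9a1a.1 log2 fold change was -1.96 (SE 0.29, adjusted p = 0.00195). Both lists of values are separated by a gap wider than either group. Of 22 eicosanoid and annexin genes 4 rose and 2 fell (all tested entries, 2.86% and 2.33%). Ephx2, which hydrolyses epoxy fatty acids, had 142, 179 and 119 CPM in injured and 25.6, 17.6 and 15.08 CPM in uninjured libraries. The ephx2 log2 fold change was 2.93 (SE 0.56, adjusted p = 0.00692). Hpgd, which inactivates prostaglandins (-1.44), and ptgs1, the constitutive cyclooxygenase (-0.95), fell, and the phospholipase pla2g4aa, at 0 counts in all uninjured libraries, rose. The calls on ephx2, hpgd, ptgs1 and pla2g4aa were each lost, with adjusted p = 0.0543 to 0.162, without at least 1 of the 6 DMSO libraries or uninjured AMD3100 replicates 1, 2 or 3.

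Of 146 tested chromatin regulators 6 fell and 0 rose, 4.11% called against 5.19% of all tested entries (2.33% lower). The Polycomb reader cbx7a had 10.6, 8.31 and 6.09 CPM in injured and 51.1, 51.3 and 54.5 CPM in uninjured libraries (log2 fold change -2.67, SE 0.31, adjusted p = 5.04e-04), and the small phosphatase ctdsp2, which acts on the tail of RNA polymerase II and on other nuclear proteins, had 3.32, 2.56 and 2.72 CPM in injured and 19.6, 19.04 and 23.3 CPM in uninjured libraries. The ctdsp2 log2 fold change was -2.87 (SE 0.34, adjusted p = 5.04e-04). The uninjured values of both genes were nearly equal among themselves and well above every injured value. The histone variant gene macroh2a2, which marks silenced chromatin, had 27.9, 28.7 and 29.8 CPM in injured and 82.1, 83.5 and 150.3 CPM in uninjured libraries (log2 fold change -1.88, SE 0.32, adjusted p = 0.00363), with uninjured replicate 3 the highest. Of the 6 falls of the list, 4 were the demethylase genes kdm2ba and kdm2bb and the DNA methyltransferase genes dnmt3ab and dnmt3bb.1. The genes described before them are not all on it. The homeobox repressor ved had 12.3, 10.6 and 15.2 CPM in injured and 124, 102 and 291 CPM in uninjured libraries (log2 fold change -3.77 ± 0.55 SE, adjusted p = 0.00158), a gap of about 7 times between the closest values, and the actin-regulated coactivator mrtfab had 79.01, 73.7 and 92.4 CPM in injured and 227, 294 and 265 CPM in uninjured libraries. The mrtfab log2 fold change was -1.68 (SE 0.28, adjusted p = 0.00327). Among 47 myeloid and haematopoietic transcription factors 1 passed, bcl6ab (log2 fold change -1.75), and klf12a, a repressor outside that list, rose. The klf12a log2 fold change was 2.697 (SE 0.46, adjusted p = 0.0035). The calls on kdm2ba, kdm2bb, dnmt3ab, dnmt3bb.1 and bcl6ab were each lost, with adjusted p = 0.0529 to 0.177, without at least 1 of the 6 DMSO libraries or uninjured AMD3100 replicates 1, 2 or 3.

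Of 82 ribosome biogenesis genes 3 fell and 0 rose, 3.66% against 2.33% lower over all tested entries, with a median of -0.16. The nucleolar nop53 had 26.6, 26.97 and 27.6 CPM in injured and 80.5, 108 and 91.8 CPM in uninjured libraries. The nop53 log2 fold change was -1.79 (SE 0.33, adjusted p = 0.00567). The nucleolar GTPase gtpbp4 had 14.3, 11.6 and 6.89 CPM in injured and 36.4, 32.96 and 39.8 CPM in uninjured libraries (log2 fold change -1.76, SE 0.3003, adjusted p = 0.00363) and ddx21, a helicase, was the third (-2.15). Rsl1d1, a nucleolar protein outside the list, had 56.1, 51.6 and 48.7 CPM in injured and 151, 182 and 126 CPM in uninjured libraries. The rsl1d1 log2 fold change was -1.55 (SE 0.25, adjusted p = 0.00309). The 3 injured values of nop53 lay within 1.0 CPM of each other. Of 121 cell cycle and replication genes 6 fell and 1, the cyclin ccnd1, rose (median -0.37). Stmn1a, a tubulin-binding protein of dividing and migrating cells, had 4.32, 5.39 and 5.93 CPM in injured and 19.6, 22.7 and 28.9 CPM in uninjured libraries (log2 fold change -2.18 ± 0.33 SE, adjusted p = 0.00195). The list's share of tested members called lower was about 2 times that of all tested entries, and without a single library the falls numbered 1 to 10. The calls on ccnd1 and ddx21 were each lost, with adjusted p = 0.0608 to 0.17, without at least 1 of the 6 DMSO libraries or uninjured AMD3100 replicate 2.

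Matrix, adhesion and cytoskeleton genes were called one by one. Fibronectin fn1b had 165, 77.4 and 55.6 CPM in injured and 6.53, 1.46 and 0.545 CPM in uninjured libraries (log2 fold change 5.36 ± 0.93 SE, adjusted p = 0.00384), and tenascin tnxba, another matrix glycoprotein, had 35.9, 65.4 and 38.9 CPM in injured and 8.16, 3.66 and 7.996 CPM in uninjured libraries. The tnxba log2 fold change was 2.76 (SE 0.42, adjusted p = 0.00195). The injured values of fn1b spanned nearly 3 times between replicates, and all exceeded the uninjured ones by over 8 times. Among genes of the actin cytoskeleton, aif1l, an actin-bundling protein, had 246, 275 and 399.8 CPM in injured and 42.98, 20.5 and 8.905 CPM in uninjured libraries (log2 fold change 3.71 ± 0.56 SE, adjusted p = 0.00195), the small GTPase rhogb, an activator of Rac in mammals, had 176, 279 and 187 CPM in injured and 67.5, 76.2 and 65.4 CPM in uninjured libraries (log2 fold change 1.62 ± 0.28 SE, adjusted p = 0.00398), and the actin-severing scinla had 3.98, 4.16 and 3.04 CPM in injured and 15.8, 12.5 and 23.4 CPM in uninjured libraries. The scinla log2 fold change was -2.23 (SE 0.35, adjusted p = 0.00236). The membrane-cytoskeleton protein marcksl1b, the 1 rise of 16 tested nervous system markers, had 133, 267 and 162 CPM in injured and 46.8, 13.9 and 5.997 CPM in uninjured libraries (log2 fold change 3.12, SE 0.59, adjusted p = 0.00669), and the motor gene myo1ca had 11.95, 10.8 and 6.89 CPM in injured and 27.2, 49.8 and 40.7 CPM in uninjured libraries. The myo1ca log2 fold change was -1.99 (SE 0.34, adjusted p = 0.0035). In aif1l, rhogb, scinla, marcksl1b and myo1ca the groups did not overlap. The secretory GTPase rab3db, known from regulated exocytosis, stayed under 1 CPM in the injured libraries, 2, 10 and 5 counts in the injured libraries and 15, 11 and 64 counts in the uninjured ones. The rab3db log2 fold change was -3.51 (SE 0.501, adjusted p = 0.00158).

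Genes of some secreted, membrane and other proteins fell as well. Properdin, cfp, which stabilizes the alternative complement convertase and is stored in mammalian neutrophils, had 18.9, 11.9 and 15.2 CPM in injured and 79.4, 77.6 and 96.7 CPM in uninjured libraries. The cfp log2 fold change was -2.48 (SE 0.296, adjusted p = 5.04e-04). The gene kctd12.2 had 64.1, 61.8 and 43.3 CPM in injured and 152, 290.03 and 279.7 CPM in uninjured libraries. The kctd12.2 log2 fold change was -2.095 (SE 0.296, adjusted p = 0.00145). The intracellular calcium channel ryr3, which is also on the skeletal muscle list, had 7.303, 16.7 and 6.89 CPM in injured and 73.4, 129.6 and 68.9 CPM in uninjured libraries. The ryr3 log2 fold change was -3.09 (SE 0.53, adjusted p = 0.00363). Injured and uninjured values of these 3 genes did not overlap. Of 15 complement and antimicrobial genes 1 rose, pglyrp5, and 2 fell, cfp and cfh; the calls on cfh and pglyrp5 were each lost, with adjusted p = 0.0523 to 0.116, without at least 1 of injured DMSO replicates 1 or 2 or uninjured DMSO replicate 3. Circadian genes had 2 of 26 higher (nfil3 and bhlhe40) and 2 lower (cry3a and nr1d2a), against 2.86% and 2.33% of all tested entries. Per2 had too few counts to test (5, 14 and 4 in injured, 0, 0 and 2 in uninjured libraries). The calls on nfil3, bhlhe40, cry3a and nr1d2a were each lost, with adjusted p = 0.0568 to 0.188, without at least 1 of the 6 DMSO libraries or uninjured AMD3100 replicates 1, 2 or 3.

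Markers of other cell types were present in the sort. For comparison with the calls of each list, 2.86% of all tested entries rose and 2.33% fell. Of 60 tested skeletal muscle genes 0 rose and 5 fell, and 8 of 84 muscle entries in the table were at 0 in all 6 libraries, among them pvalb2 and smyhc2. Muscle genes took 1.15%, 1.29% and 0.238% of counts in injured and 0.995%, 2.35% and 0.435% in uninjured libraries (exact two-sided permutation p = 0.7), and the list's median log2 fold change of -1.01 became -0.06 without uninjured replicate 2. Erythroid genes had 0 of 17 higher and 3 lower and took 0.00546% to 0.00973% of counts in injured and 0.0153% to 0.0419% in uninjured libraries (two-sided exact permutation p = 0.1, again the smallest possible). Of 33 erythroid entries 4 were at 0 (ank1a, hbbe3, hbaa2 and hbba2), and all others had counts. Macrophage genes had 0 of 20 higher and 2 lower, at 0.119% to 0.16% of counts in injured and 0.0886% to 0.123% in uninjured libraries. Of 34 macrophage entries matched by their own symbol 7 were at 0 in all 6 libraries, mfap4 and cd74a among them, and all others had counts. The macrophage shares rest on 41 entries, 16 of them at 0 in all injured and 13 at 0 in all uninjured libraries. The entries at 0 of each list were counted by own symbol only, while shares and calls also used entries matched by a reference gene name. On the skin list 2 of 29 rose and 0 fell, with 0.39% to 0.615% in injured and 0.441% to 0.574% in uninjured libraries. By share of all counts, some lists of other cell types stood higher in injured larvae without overlap. Many lists of cell functions did so too, so such a gap is not particular to these cell types. Ion channel and calcium genes took 0.502% to 0.52% in injured and 0.377% to 0.435% in uninjured libraries. Their median log2 fold change was 0.044. The shares are not scaled by composition. The scaling factors were 1.074 to 1.118 in injured and 0.806 to 0.9496 in uninjured libraries, and their part in the gaps was not tested. Thrombocyte genes (1 of 5 higher, f5, and 0 lower) took 0.0654% to 0.115% of counts in injured and 0.035% to 0.0403% in uninjured libraries, with 3 of 15 entries at 0. Lymphoid genes (2 of 8 higher, blnk and ccr9a, and 0 lower) took 0.0392% to 0.0508% in injured and 0.0221% to 0.0292% in uninjured libraries, with 13 of 31 at 0, among them pax5, cd79b and rag2. Genes of mesenchyme, cartilage and notochord (0 of 21 called) took 0.0691% to 0.0846% in injured and 0.0565% to 0.0665% in uninjured libraries, with 14 of 64 at 0. For each of these 3 lists the exact two-sided permutation p was 0.1. With mitochondrial counts left out of the total, the mesenchyme list overlapped (exact two-sided permutation p = 0.2). It then took 0.0946% to 0.109% in injured and 0.0832% to 0.0949% in uninjured libraries. The thrombocyte and lymphoid shares still did not overlap, although 4 of 5 tested thrombocyte and 5 of 8 tested lymphoid genes had a negative log2 fold change. Nervous system genes overlapped, at 0.296% to 0.356% in injured and 0.21% to 0.303% in uninjured libraries, and no endothelial (5 tested) or pigment cell gene (3 tested) was called. The call on f5 was lost, with adjusted p = 0.0545 to 0.0821, without injured DMSO replicates 1 or 3 or uninjured DMSO replicates 1, 2 or 3. When every entry of all 10 lists of other cell types was left out, 445 genes were called, 243 higher and 202 lower, against 439 with them; their part in single results was not tested.

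The same lesion in AMD3100 larvae gives a separate set of libraries, injured against uninjured with no sample shared, fitted together with the DMSO libraries. It called 458 entries (5.42%), 254 higher (3%) and 204 lower (2.41%). Of the 439 called in DMSO, 246 were called in the same direction there (56.0% of the DMSO and 53.7% of the AMD3100 calls) and none in the opposite one. The difference between the 2 injury effects was called for 0 of 8453 entries in edgeR (265 at an unadjusted p under 0.05, and 0 with DESeq2). Without the filter on low counts 68 were called, and without injured AMD3100 replicate 3 there were 2. Injured AMD3100 replicate 1 had the fewest counts of the series, 655451, and GFP transcripts at 397 CPM, where the next lowest library had 1326 CPM. Without that replicate 462 entries were called for injury in AMD3100, and 0 for the difference between the injury effects. Proteasome genes had 25 of 50 higher in AMD3100, and the V1 sector 7 of 10. In AMD3100 psmd8 changed by 1.37 (adjusted p = 0.013), prdx1 by 2.07 (0.00147), illr4 by 2.802 (7.90e-04), cbx7a by -2.73 (7.90e-04) and cpa5 by -1.73 (0.00637) on the log2 scale. For il11b the AMD3100 libraries gave 2.804, 1.01 and 14.3 CPM in the injured libraries, against 5.39, 10.2 and 15.3 CPM in the uninjured ones (log2 fold change -0.57, adjusted p = 0.69); the difference from the DMSO effect had an unadjusted p of 0.00293 and an adjusted p of 1.0.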

How the data were processed

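Total RNA of GFP+ cells sorted by flow cytometry into TRIzol was sequenced with an adapted CEL-seq protocol, which reads transcript ends, per the labels' protocols. The values are raw counts per gene, deposited by the authors in 1 table of 12 libraries; entries joined by a hyphenated name pool overlapping genes. BWA, GRCz11 and DESeq2 1.38 are named without a role in the submitters' processing notes; the sources do not say whether UMIs were used to collapse reads. Replicates are labelled biological. The edgeR p-values set the difference between groups against the spread between replicates, taken over all 4 groups, AMD3100 libraries included.

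Spike-ins were removed. All 12 libraries were fitted together in edgeR 4.0.16 (R 4.3.3) with TMM factors, filterByExpr by group (minimum count 10, minimum total 15) and 1 coefficient per group. The quasi-likelihood test was adjusted by Benjamini-Hochberg over 8453 entries, with calls at 0.05. The SE is the absolute log2 fold change over the root of F. DESeq2 1.42.0 and limma 3.58.1 served as alternatives. Simulated data for this comparison held 8110 genes, with 46 to 49 changed at each effect size. There edgeR recovered 4.35% of genes changed by a log2 of 1, 25.5% at 1.5, 52.1% at 2 and 89.8% at 3. Of 89 calls 6.74% were false. With 439 calls in the real data, recovery there can differ from these shares.

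The members and lists were chosen with earlier results of these data known. Symbols that matched a list's name pattern without belonging to it were removed after values were seen, and the parts of the proteasome, pump and glycolysis lists were drawn then too. Named genes were the 15 largest called rises and falls of at least 20 CPM without overlap, the 10 most abundant called genes, up to 8 called and 3 uncalled members of each list, and a short fixed set. The genes aldh9a1a.1, aldoab, atp6ap1b, cebp1, ch25hl2, coro1a, ctsla, eno3, fthl27, hpxb, itln1, kctd12.2, klf12a, ldhba, macroh2a2, me2, mrtfab, nadka, nccrp1, ncf4, nqo1, nsfl1c, odc1, park7, pfkpb, pgk1, psmd5, psmg2, rsl1d1, srgn, tcirg1b, tnxba, uchl5 and vcp were named after their values were seen. Same-numbered injured and uninjured libraries were compared for pairing. Promoter motifs were planned and not computed, since no sequence was used here. Some measured genes and lists are not reported here.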

Additional observations from a re-analysis of the deposited data

How the results depend on the processing

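Of 439 changed genes (242 higher, 197 lower), the count moved to 723 (395 lower) with DESeq2, 701 (364 lower) without a filter, 722 (381 higher, 341 lower) in the 6 DMSO libraries alone, 951 (446 higher, 505 lower) with limma-voom quality weights and 760 (379 higher, 381 lower) at an adjusted p under 0.1; the causes were not tested. Other scalings, filters and exclusions gave 434 to 445 in all, with 215 higher and 219 lower under RLE factors. Leaving out single libraries gave 163 to 659 changed, 88 to 381 higher and 71 to 278 lower. Of the 439 calls, 438 were kept by DESeq2 and 155 without uninjured DMSO replicate 3. Without injured AMD3100 replicate 1 and uninjured DMSO replicate 2, a setting chosen after seeing the data, 442 passed (236 higher, 206 lower). The AMD3100 count of 458 became 731 with DESeq2, 714 without a filter, 735 at 0.1 and 119 to 574 without single libraries; the count of differing injury effects, 0, became 68 without a filter and 0 to 2 without single libraries. Same-numbered injured and uninjured libraries correlated by 0.04, 0.05 and 0.14, and differently numbered ones by -0.0845 to 0.025. Each same-numbered value was the highest for its libraries, but all were low, and the numbers were not taken to pair them. With the replicate block 353 genes passed in the fit of 12 libraries (195 higher, 158 lower) and 699 (360 higher, 339 lower) in the 6 alone. No named gene that passed in the main fit or in a setting had the opposite sign in that setting. A change of sign in a gene that passed in neither was not counted. Of 5459 entries under 20 CPM 3.13% passed, of 2104 at 20 to 100 CPM 8.37%, of 777 at 100 to 1000 CPM 10.8% and of 113 at 1000 CPM or more 7.08%; the part of depth in this was not tested.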
